A study of Mus musculus with 6 samples.

Results

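Neuropeptide precursor genes encode the larger proteins from which signaling peptides are cut. Described here are 10 of them, named by symbol: Nts, Penk, Iapp, Npy, Grp, Gal, Vip, Adcyap1, Tac1 and Sst. They are 10 of the 22180 genes that had a probe set carrying 1 gene symbol alone, and each of the 10 had 1 such probe set. The arrays, of the Affymetrix Mouse Gene 2.0 ST type, measured total RNA of the KP1 line. KP1 came from small cell lung cancer of mice in which Rb, p53 and p130 are all knocked out, so that both groups lack these genes. In the N1ICD group (3 arrays) the cells carried a Notch1-ICD-ires-GFP plasmid, which expresses the intracellular, active domain of the Notch1 receptor together with GFP. In the control group (3 arrays) they carried the empty ires-GFP vector. Cells positive for GFP were sorted 48 hours after transfection in both groups. The labels give neither the promoter of the plasmids nor the species of the insert, and they call the 3 samples of a group biological replicates without naming separate cultures or days, so the p-values measure the spread between these samples, which may be technical.

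A neuropeptide precursor enters the secretory pathway and is sorted into dense-core granules. There prohormone convertases cut it at pairs of basic residues, carboxypeptidase E trims the ends, and many peptides are amidated before release. Pulmonary neuroendocrine cells and small cell lung cancer cells are known for storing and releasing such peptides, gastrin-releasing peptide among them, and Notch signaling is known to restrain neuroendocrine differentiation in the lung.

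All values are log2 expression after RMA, the array normalization named in the submitters' notes, and every change is N1ICD minus control on that scale. The labels were checked first. Notch1 had log2 expression of 8.07, 7.49 and 7.72 in N1ICD replicates 1, 2 and 3, against 6.35, 6.20 and 5.96 in control replicates 1, 2 and 3. It rose by 1.59 ± 0.17 (SE; limma adjusted p = 0.000889), and Hes1, a direct Notch target that encodes a repressor, rose by 3.46 ± 0.11 (limma adjusted p = 1.40e-06). Of 5 neuroendocrine markers measured, Chga and Ncam1 rose (0.64 and 0.53), Insm1 fell by 0.89, and Syp and Uchl1 had changes of 0.14 and -0.06. In all 6 arrays each of the 5 lay above the median of all genes, which was 6.19 to 6.24 in N1ICD arrays and 6.14 to 6.20 in control arrays. For other cell types, 1 of 5 fibroblast markers fell (Pdgfra, -0.74). Dcn, also a fibroblast marker, had a change of -0.65 without overlap of the groups (unadjusted p = 0.00670, limma adjusted p = 0.0752), and 4 of the 5 had a lower mean in N1ICD. Of the other lists, 0 of 5 macrophage markers changed by limma (1 at an unadjusted p under 0.05), and of 4 endothelial markers 2 rose, Kdr by 3.04 and Tek by 1.06, while Pecam1 (0.07) and Cdh5 (-0.01) did not pass the test. The log2 values were also summed over each marker list. For neuroendocrine markers the sums were 51.8 to 52.9 in N1ICD and 51.8 to 52.1 in control arrays, with overlap. They were 28.2 to 28.5 in N1ICD against 29.6 to 30.1 in control arrays for fibroblasts, where Pdgfra and Dcn had the largest changes. Col1a1, Col1a2 and Lum, below the array median in all 6 arrays, had changes of -0.13, 0.13 and -0.16. Macrophage sums were 25.1 to 25.7 in N1ICD against 25.0 to 25.6 in control arrays. Endothelial sums were 29.3 to 30.1 in N1ICD against 25.3 to 25.8 in control arrays, where only Kdr and Tek of the 4 markers passed the test. The calls of Chga, Ncam1 and Pdgfra were lost in 4, 5 and 4 of 6 fits with 1 array left out (highest limma adjusted p 0.0638, 0.0955 and 0.0736). No marker is at 0, since RMA values have no zero, and their part in the results below was not tested.

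The neuropeptide genes moved in both directions. Nts rose, Penk and Iapp fell, and the other 7 did not pass the test. These 3 of 10 compare with 7.10% of all genes that passed the test in either direction (adjusted p under 0.05 in limma, Benjamini-Hochberg over 22180 genes); 3.82% rose and 3.27% fell. Scaled to equal array medians, 730 genes rose and 948 fell, against 848 and 726 as deposited. Because the 10 genes were picked with earlier results of these arrays known, no p is given for the set. The median change of the 10 was -0.11, against -0.02 over all genes, and the median size of change was 0.27, against 0.14. The 3 N1ICD arrays did not overlap the 3 control arrays for 5 of the 10 genes, against 26.1% of all genes; 2 were higher and 3 lower, against 11.1% and 15.0% of all genes. Levels are RNA per array from sorted cells in bulk, so fewer cells that express a gene and less RNA per cell cannot be told apart.

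**Figure D1:**
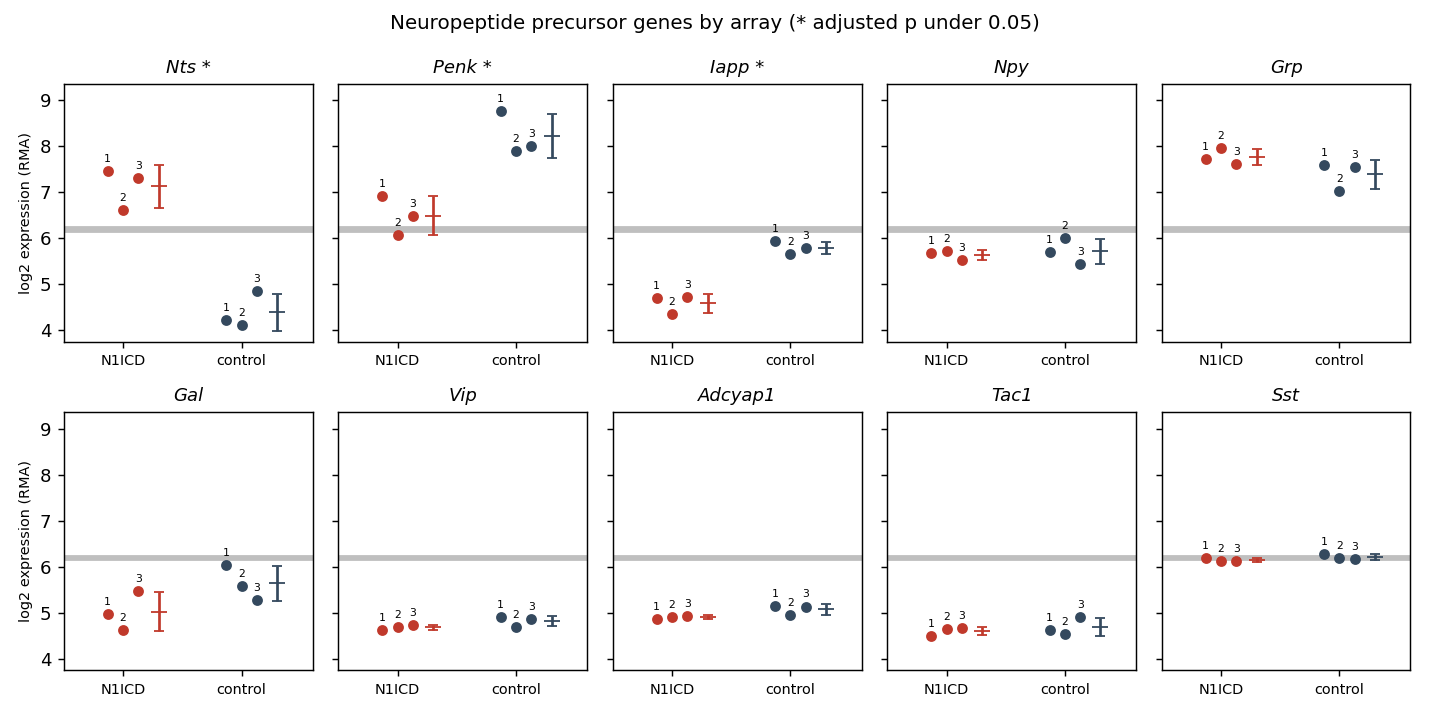
Log2 expression (RMA, vertical axis) of the 10 neuropeptide precursor genes in each N1ICD array (red, left) and each control array (dark, right), with the replicate number above each point and the group mean ± SD beside it. The grey band is the range of the array medians over all genes, 6.14 to 6.24. Nts is higher in N1ICD and Penk and Iapp are lower, without overlap of the arrays. Levels of different probe sets do not rank the genes by amount of RNA. The band only marks which probe sets were dim or bright on the arrays.

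Nts (probe set 17244601) encodes the precursor of neurotensin and neuromedin N, peptides of gut endocrine cells and neurons that act through G protein-coupled receptors. Its log2 expression was 7.47, 6.61 and 7.31 in N1ICD replicates 1, 2 and 3, against 4.22, 4.11 and 4.86 in control replicates 1, 2 and 3. The lowest N1ICD array stood 1.75 above the highest control array. In the 3 control arrays the probe set lay below the array median of all genes, and in the 3 N1ICD arrays above it. The group means were 7.13 ± 0.46 in N1ICD and 4.40 ± 0.40 in control (SD, n = 3 each). Nts thus rose 6.65-fold, a log2 change of 2.73 ± 0.26 (SE) with a 95% interval of 2.13 to 3.33 (limma adjusted p = 0.000566). Background was not measured on these values, and RMA narrows the changes of dim probe sets, so the fold holds for the RMA values.

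Penk (probe set 17423030) encodes proenkephalin, the source of the opioid peptides Met- and Leu-enkephalin. It had log2 expression of 6.92, 6.07 and 6.49 in N1ICD replicates 1, 2 and 3, against 8.77, 7.89 and 8.02 in control replicates 1, 2 and 3. The highest N1ICD array was 0.97 below the lowest control array, and control replicate 1 stood highest of all. Its means were 6.49 ± 0.43 in N1ICD and 8.23 ± 0.48 in control (SD, n = 3 each). Penk fell 3.32-fold (log2 change -1.73 ± 0.27, 95% interval -2.36 to -1.11, limma adjusted p = 0.00760). Without N1ICD replicate 3 the adjusted p was 0.0347, the highest of the 6 fits that left out 1 array.

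Iapp (probe set 17464102) encodes islet amyloid polypeptide, or amylin, a peptide of the calcitonin family that pancreatic beta cells release with insulin. Its log2 expression was 4.70, 4.35 and 4.72 in N1ICD replicates 1, 2 and 3, against 5.93, 5.65 and 5.79 in control replicates 1, 2 and 3. Every N1ICD array lay at least 0.93 below every control array, and all 6 lay below the array medians. The means were 4.59 ± 0.21 in N1ICD and 5.79 ± 0.14 in control (SD, n = 3 each), a 2.30-fold fall (log2 change -1.20 ± 0.13, 95% interval -1.51 to -0.90, limma adjusted p = 0.00121). Of the 3 changed genes Iapp had the smallest SE.

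Some arrays were the lowest or the highest of their group for several of these genes. N1ICD replicate 2 had the lowest N1ICD value of Nts, Penk, Iapp and Gal and the highest of Grp and Npy. Control replicate 1 had the highest control value of Penk, Iapp, Grp, Gal, Vip, Adcyap1 and Sst, and control replicate 3 the highest of Nts and Tac1.

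Gal encodes galanin, a peptide of neurons and endocrine cells that acts on the galanin receptors. Its log2 expression was 4.98, 4.62 and 5.46 in N1ICD replicates 1, 2 and 3, against 6.04, 5.59 and 5.27 in control replicates 1, 2 and 3. N1ICD replicate 3 lay above control replicate 3, so the groups overlapped. With means of 5.02 ± 0.42 in N1ICD and 5.63 ± 0.39 in control (SD, n = 3 each), the change was -0.61 ± 0.25 (95% interval -1.18 to -0.05), which did not pass the test (limma adjusted p = 0.213).

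Grp encodes gastrin-releasing peptide, the mammalian bombesin and a classical secretory product of pulmonary neuroendocrine cells. It had 7.73, 7.95 and 7.61 in N1ICD replicates 1, 2 and 3, against 7.59, 7.03 and 7.55 in control replicates 1, 2 and 3. The groups were apart by only 0.02, between N1ICD replicate 3 and control replicate 1. All 6 values lay above the array medians. The means of 7.76 ± 0.17 in N1ICD and 7.39 ± 0.31 in control (SD, n = 3 each) gave a change of 0.38 ± 0.17 (95% interval -0.01 to 0.76, limma adjusted p = 0.264), and of 0.20 without control replicate 2, its lowest control array.

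The remaining 5 genes had changes between -0.17 and -0.06. Npy, the precursor of the appetite-stimulating neuropeptide Y, had 5.53 to 5.73 in N1ICD arrays and 5.44 to 6.001 in control arrays (change -0.07 ± 0.15, limma adjusted p = 0.857). Adcyap1 encodes PACAP, a neuropeptide that raises cyclic AMP in its target cells, and had 4.85 to 4.94 in N1ICD arrays and 4.94 to 5.14 in control arrays. For Adcyap1 the groups were apart by 0.002 and the change was -0.17 ± 0.10 (limma adjusted p = 0.401). Vip, the precursor of vasoactive intestinal peptide and a close relative of PACAP, had 4.63 to 4.72 in N1ICD and 4.69 to 4.90 in control arrays (-0.14 ± 0.10, limma adjusted p = 0.515). Tac1, which encodes substance P and neurokinin A, had 4.50 to 4.67 in N1ICD and 4.52 to 4.90 in control arrays (-0.08 ± 0.12, limma adjusted p = 0.800). Sst, the precursor of the inhibitory hormone somatostatin, had 6.11 to 6.20 in N1ICD and 6.16 to 6.28 in control arrays (-0.06 ± 0.09, limma adjusted p = 0.776). The 95% intervals of the change were -0.41 to 0.27 for Npy, -0.40 to 0.06 for Adcyap1 and -0.36 to 0.09 for Vip. For Tac1 the interval was -0.36 to 0.20, and for Sst -0.27 to 0.15. These intervals hold for the RMA values and are not adjusted for the number of genes. Iapp, Npy, Gal, Vip, Adcyap1 and Tac1 lay below the array median in all 6 arrays, the range in which RMA narrows differences.

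The 3 against 3 design allows no exact two-sided permutation p below 0.1 over its 20 assignments. That smallest value was reached by the 5 genes whose groups did not overlap, Nts, Penk, Iapp, Grp and Adcyap1, and the others had exact permutation p of 0.2 (Gal and Sst), 0.3 (Vip), 0.7 (Tac1) and 0.8 (Npy).

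**Figure D2:**
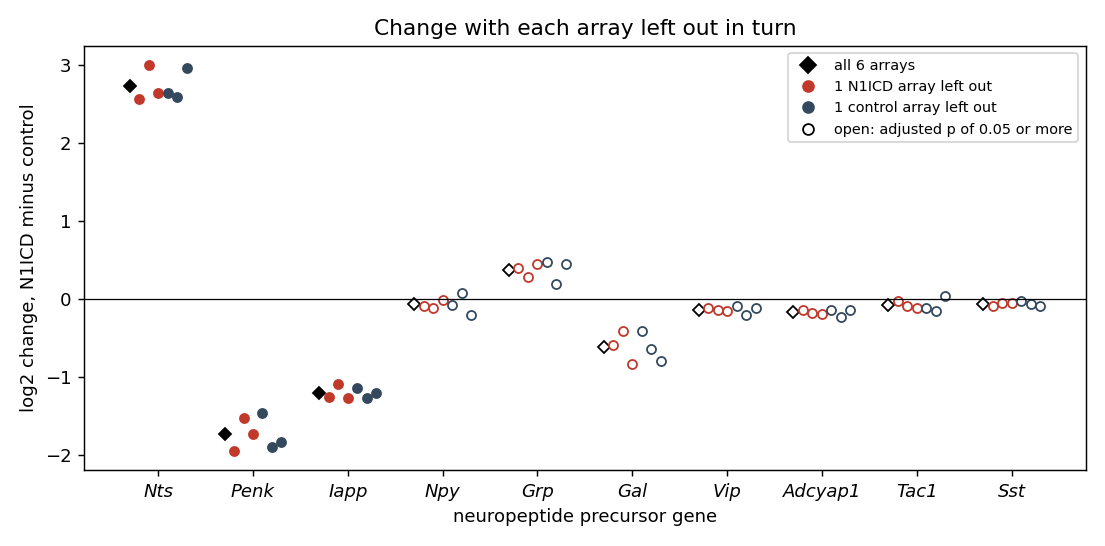
Log2 change (N1ICD minus control, vertical axis) of the 10 genes with all 6 arrays (black diamonds), with 1 N1ICD array left out (red) and with 1 control array left out (dark). Filled symbols have a limma adjusted p under 0.05. Nts stays between 2.56 and 2.99, Penk between -1.95 and -1.46 and Iapp between -1.27 and -1.08 with filled symbols throughout, and the other 7 genes have open symbols throughout.

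Promoter sequences were looked up for the 10 genes, whether or not they passed the test. RefSeq promoters on GRCm38.p6 were matched for 8 of the 10 genes, and those of Penk and Grp were not. Nts and Iapp are shown because they changed in opposite directions, and Sst because it carries the textbook cyclic AMP response element (CRE), the site bound by CREB, and did not pass the test. Each run holds the 250 bases before the annotated start, written 5′ to 3′ on the gene's strand. Capitals mark matches, on either strand, to 6 motifs: the CRE TGACGTCA, its shorter form TGACG, the AP-1 site TGANTCA, the core TGGGAA of sites bound by the Notch partner RBPJ, the E-box CANNTG bound by bHLH factors, and the N-box CACNAG bound by Hes repressors. A full CRE also counts as 2 matches of the shorter form.
Nts, chr10:102490419-102490668, minus strand: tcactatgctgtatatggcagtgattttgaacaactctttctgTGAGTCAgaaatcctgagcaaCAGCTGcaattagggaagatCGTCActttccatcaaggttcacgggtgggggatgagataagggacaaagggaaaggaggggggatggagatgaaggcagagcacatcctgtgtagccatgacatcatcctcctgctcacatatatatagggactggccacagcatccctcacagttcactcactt
Iapp, chr6:142298175-142298424, plus strand: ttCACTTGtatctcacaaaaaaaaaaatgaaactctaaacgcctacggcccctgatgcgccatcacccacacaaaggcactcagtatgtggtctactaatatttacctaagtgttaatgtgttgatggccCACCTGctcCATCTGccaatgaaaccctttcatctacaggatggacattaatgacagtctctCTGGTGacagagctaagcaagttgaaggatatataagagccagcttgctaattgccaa
Sst, chr16:23890845-23891094, minus strand: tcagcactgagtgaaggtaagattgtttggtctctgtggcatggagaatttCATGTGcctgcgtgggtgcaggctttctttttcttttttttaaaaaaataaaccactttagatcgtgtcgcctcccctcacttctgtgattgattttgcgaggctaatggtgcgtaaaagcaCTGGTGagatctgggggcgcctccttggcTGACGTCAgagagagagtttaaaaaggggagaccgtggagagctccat
The Nts promoter held an AP-1 match at -207, an E-box match at -186 and the shorter CRE form at -166 (first base of the match, counted back from the start site). Iapp held 3 E-box matches, at -248, -120 and -111, and an N-box match at -58. Sst held the full CRE at -48, with an E-box at -199 and an N-box at -77. Among the 8 genes the shorter CRE form occurred in 5 (Nts, Vip, Adcyap1, Tac1 and Sst) and the AP-1 letters only in Nts. The RBPJ letters occurred in Gal alone, an E-box in 4 (Nts, Iapp, Tac1 and Sst) and an N-box in 4 (Iapp, Gal, Vip and Sst). Of all 32851 promoters of this length, 1.55% held the full CRE, 17.8% its shorter form, 6.75% AP-1, 21.6% the RBPJ core, 66.2% an E-box and 36.7% an N-box. These are exact matches of letters, not measured binding. Near matches are not marked, such as tgacatca in the Nts promoter, which resembles the full CRE.

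Among other precursor genes, Cck rose and Apln fell. Of 50 further neuropeptide precursor genes measured, 1 rose and 1 fell, while 48 missed the threshold (4% passed, against 7.10% of all genes; median change 0.02). Cck, the precursor of cholecystokinin, a gut hormone and brain neuropeptide, had 6.996, 7.13 and 7.15 in N1ICD replicates 1, 2 and 3, against 5.57, 5.71 and 5.86 in control replicates 1, 2 and 3. It rose 2.61-fold (1.38 ± 0.11, limma adjusted p = 0.000188), with all N1ICD arrays above all control arrays. Apln, which encodes apelin, the ligand of the receptor APJ, had 5.53, 5.62 and 5.17 in N1ICD replicates 1, 2 and 3, against 6.30, 6.30 and 6.46 in control replicates 1, 2 and 3. It fell 1.88-fold (-0.91 ± 0.13, limma adjusted p = 0.00522).

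In the opioid family, Penk alone of 4 measured precursor genes passed the test. Pdyn (prodynorphin), Pomc (the source of beta-endorphin and ACTH) and Pnoc (pronociceptin) had changes of 0.11, 0.16 and 0.13 with limma adjusted p between 0.562 and 0.792. All 3 lay below the array median in every array. In the calcitonin family, beside Iapp, the vasodilator precursors Adm and Adm2 had changes of 0.57 ± 0.22 and -0.42 ± 0.13 (limma adjusted p = 0.204 and 0.109), and Calcb, a calcitonin gene-related peptide gene, -0.10 ± 0.12 (limma adjusted p = 0.721). Whether these changes differ from those of Penk and Iapp was not tested. The 48 genes that did not pass ranged in change between -0.68 and 0.57, and 46 of them were under 0.5 in size. Of the 50 genes 32 were below the array median in all 6 arrays. Adm2 passed the threshold without N1ICD replicate 2 (limma adjusted p = 0.0326) and with genes of below-median mean left out (limma adjusted p = 0.0407). Without N1ICD replicate 3, Ppy, the pancreatic polypeptide precursor, passed (limma adjusted p = 0.0444). Calca and Agrp were not analysed here.

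**Figure D3:**
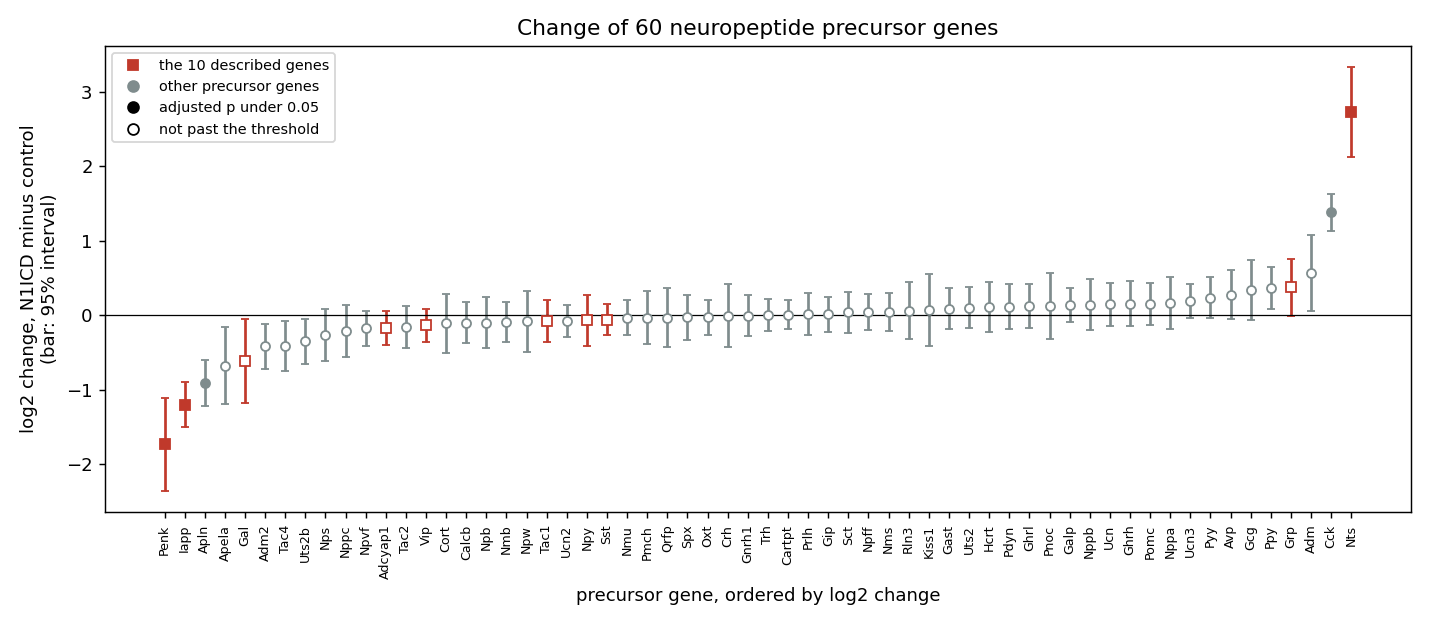
Log2 change (N1ICD minus control, vertical axis) of 60 neuropeptide precursor genes in order of change, with 95% intervals; squares are the 10 genes described and circles the other 50. Filled symbols passed an adjusted p of 0.05: Penk, Iapp and Apln at the low end, Cck and Nts at the high end.

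The receptors through which the 10 peptides act were measured for 25 genes, of which 2 rose and 3 fell, while 20 missed the threshold. The share that passed was 20%, against 7.10% of all genes, and with 1 array left out 4 to 6 genes passed. With genes of below-median mean left out, 6 of 11 receptor genes passed, where 2197 of all 11090 genes in that fit passed. The receptor list was chosen with earlier results of these data known, so no p is given for it. None of the 9 receptor genes of neurotensin, enkephalins and amylin passed the limma test, and 2 of them (Sort1 and Calcr) had an unadjusted p under 0.05. For neurotensin, Ntsr1 (0.27 ± 0.12, limma adjusted p = 0.256), Ntsr2 (0.28 ± 0.19, limma adjusted p = 0.486) and the sorting receptor Sort1 (-0.37 ± 0.10, limma adjusted p = 0.0787) did not pass the test. Neither did the enkephalin receptors Oprd1 (-0.29 ± 0.13, limma adjusted p = 0.275) and Oprm1 (0.04 ± 0.14, limma adjusted p = 0.928). The amylin receptor is the calcitonin receptor joined to a RAMP protein. Calcr had a change of 0.62 ± 0.21 (limma adjusted p = 0.132), with 5.79, 6.23 and 6.58 in N1ICD replicates 1, 2 and 3, against 5.34, 5.596 and 5.82 in control replicates 1, 2 and 3. Ramp1, Ramp2 and Ramp3 had 0.22, 0.17 and -0.35, with limma adjusted p between 0.321 and 0.462. Without N1ICD replicate 1, Calcr (limma adjusted p = 0.0469) and Ramp3 (limma adjusted p = 0.0217) passed the threshold.

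The 5 receptor genes that passed the test act for PACAP, substance P, neuropeptide Y, somatostatin and galanin. Adcyap1r1, a PACAP receptor, had 9.60, 9.34 and 9.36 in N1ICD replicates 1, 2 and 3, against 7.11, 6.88 and 6.76 in control replicates 1, 2 and 3. It rose 5.72-fold (2.52 ± 0.13, limma adjusted p = 1.55e-05). Tacr1, the substance P receptor, had 8.64, 8.23 and 8.35 in the N1ICD arrays, against 6.09, 6.29 and 6.08 in the control arrays in the same order, and rose 4.76-fold (2.25 ± 0.13, limma adjusted p = 3.31e-05). In both genes every N1ICD array exceeded every control array by more than the range within either group. Npy1r, a neuropeptide Y receptor, had 6.49, 6.05 and 7.03 in N1ICD replicates 1, 2 and 3, against 8.51, 8.27 and 8.76 in control replicates 1, 2 and 3, and fell 3.98-fold (-1.99 ± 0.24, limma adjusted p = 0.00189). Sstr2, a somatostatin receptor, had 7.22, 7.20 and 7.39 in the N1ICD arrays, against 8.38, 8.31 and 8.40 in the control arrays, and fell 2.13-fold (-1.09 ± 0.10, limma adjusted p = 0.000364). Galr1, a galanin receptor, had 6.16, 6.35 and 6.40 in the N1ICD arrays, against 6.82, 7.57 and 6.93 in the control arrays, and fell 1.75-fold (-0.81 ± 0.19, limma adjusted p = 0.0426). With 1 array left out, the Galr1 call was lost in 5 of 6 fits, all but the one without control replicate 1 (highest limma adjusted p 0.132). Vipr1 and Vipr2, listed here as receptors of both VIP and PACAP, did not pass the test. Their changes were 0.26 ± 0.12 and 0.03 ± 0.09 (limma adjusted p = 0.259 and 0.921). Galr3 was not analysed here.

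**Figure D4:**
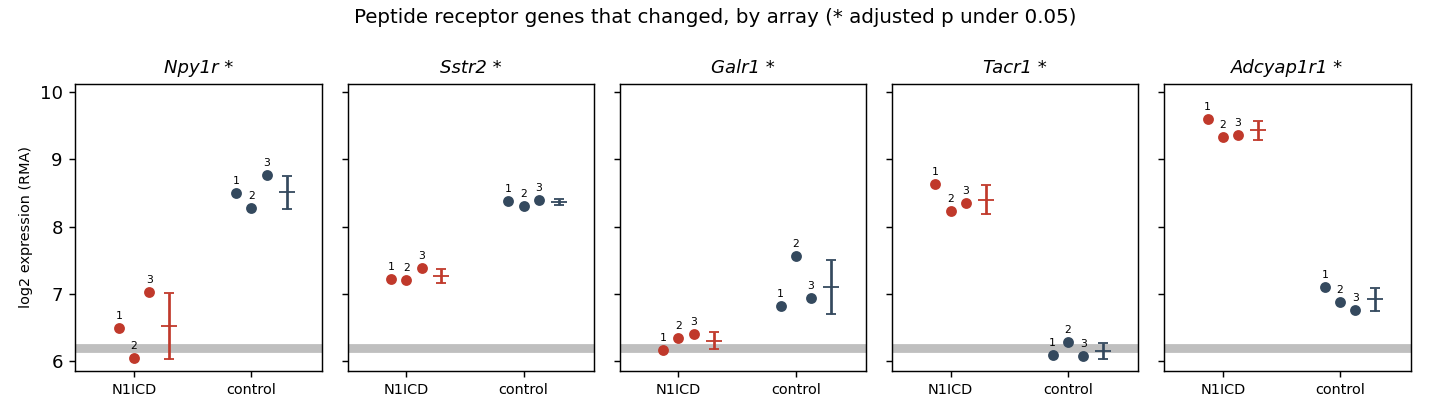
Log2 expression (RMA, vertical axis) of the 5 peptide receptor genes that passed the test, in each N1ICD array (red, left) and each control array (dark, right), with replicate numbers and the group mean ± SD. Npy1r, Sstr2 and Galr1 are lower in N1ICD and Tacr1 and Adcyap1r1 are higher, without overlap; the grey band is the range of the array medians.

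Among 9 genes that process peptide precursors, 3 rose and 0 fell by limma, while 6 missed the threshold. The share that passed was 33.3%, against 7.10% of all genes. With genes of below-median mean left out, 3 of 8 processing genes passed, where 2197 of all 11090 genes in that fit passed. The list was chosen with earlier results of these data known, so no p is given for it. Qpct, the glutaminyl cyclase that forms the N-terminal pyroglutamate found in neurotensin among other peptides, had 8.31, 8.42 and 8.29 in N1ICD replicates 1, 2 and 3, against 7.02, 7.22 and 7.30 in control replicates 1, 2 and 3. It rose 2.24-fold (1.16 ± 0.11, limma adjusted p = 0.000457). Furin, a convertase of the Golgi, rose by 0.50 ± 0.10 (limma adjusted p = 0.0237), and Pcsk1n, which encodes the inhibitor proSAAS, by 0.51 ± 0.11 (limma adjusted p = 0.0268). Both calls were lost in 5 of 6 fits with 1 array left out, so that 1 gene of the list passed without N1ICD replicate 1, control replicate 1, control replicate 2 or control replicate 3, and 2 without N1ICD replicate 2 or N1ICD replicate 3. The enzymes that cut, trim and amidate in the granule had smaller changes: -0.25 for the convertase Pcsk1, 0.14 for carboxypeptidase E (Cpe) and -0.07 for the amidating enzyme Pam, with limma adjusted p between 0.368 and 0.806. None of the list had an unadjusted p under 0.05 with a lower mean in N1ICD. Pcsk2 was not analysed here.

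Nts changed most among the 10 genes. Over the 6 arrays, the genes with the most similar profile, each taken minus its own mean, were Sez6l, Pgf and Gdpd2, at root mean square distances of 0.25, 0.30 and 0.30 on the log2 scale. Sez6l encodes a neuronal membrane protein, Pgf placental growth factor and Gdpd2 a glycerophosphodiester phosphodiesterase. These genes were chosen by all 6 arrays, the difference between the groups included, so their changes of 2.68, 3.08 and 2.86, beside 2.73 for Nts, follow from that choice and are given as a description.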

How the data were processed

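The values, in 1 column per array, are log2 expression as the authors deposited them. The submitters' processing notes name RMA, with no version, as the method that made them; RMA subtracts background, equalizes the distributions of the arrays by quantiles and summarizes each probe set. Its usual base 2 was taken, since no source used here states the base. A genome build for the probe sets is likewise not given in the sources used. Of 41345 probe sets, 23521 carried 1 gene symbol in the platform annotation, 1814 several and 16010 were not listed with one. A gene was represented by whichever of its single-symbol probe sets had the highest average over the 6 arrays, giving 22180 genes, without a filter on dim probe sets. No array duplicated another.

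Groups came from the labels. Under R 4.3.3, the functions lmFit and eBayes of limma 3.58.1 (two-sided, no covariate) gave changes, SE, 95% intervals and p-values adjusted over all genes by Benjamini-Hochberg, with a threshold of 0.05; data.table (version 1.17.8), pandas 2.3.3 and matplotlib 3.10.9 handled tables and figures. The script was tested on simulated data. The precision is limited by the number of arrays. Named were all 10 neuropeptide genes, Notch1 and Hes1, up to 4 changed genes of each other list, all receptors and family members of changed neuropeptide genes, and the 3 genes most like the one that changed most; further receptors, enzymes and markers complete small counts and were named after their values were seen. The genes and lists were chosen with earlier results of these data known. Alternatives were quantile normalization again, equal array medians, dim genes left out, the mean over probe sets, all probe sets tested, array quality weights, robust eBayes with a trend on intensity, a replicate block, and each array left out.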

Additional observations from a re-analysis of the deposited data

How the results depend on the processing

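The calls of Nts, Penk and Iapp kept their direction and passed the threshold in every alternative that could test them. The highest adjusted p was 0.00619 for Nts, 0.0423 for Penk and 0.00982 for Iapp. With genes of below-median mean left out, 2 of the 10 neuropeptide genes remained in the fit, Penk and Grp, and 1 passed, where 2197 of all 11090 genes in that fit passed (908 higher, 1289 lower). Adm2 passed there too (adjusted p = 0.0407). Leaving out 1 array gave 3 passing neuropeptide genes each time; the change of Npy ran from -0.21 to 0.07 and that of Tac1 from -0.15 to 0.03, positive without control replicate 2 (Npy, 0.0719) and without control replicate 3 (Tac1, 0.0330). Passing processing genes numbered 1 to 2 without 1 array, and 1 with all probe sets tested, where the adjustment covers 41345 tests. Over all genes, 2276 passed with an intensity trend and robust eBayes (1049 higher, 1227 lower), 805 with all probe sets tested (548 higher, 257 lower), and 823 to 1230 without 1 array, with 823 without N1ICD replicate 2, 896 without control replicate 2 and 887 without control replicate 3. Galr1 also lost its call with all probe sets tested (adjusted p = 0.137). Deviations of same-numbered arrays from their group means correlated at 0.23, 0.01 and 0.20 across genes. Differently numbered arrays of the 2 groups ranged from -0.23 to 0.06. Because deviations are taken from group means, these values depend on each other, and the labels do not tie the numbers together. With the replicate number as a block, 1518 genes passed, 3 of them neuropeptide genes, Calcr passed (adjusted p = 0.0265) and Pcsk1n did not (adjusted p = 0.0569). Of the receptors, Sort1 passed with an intensity trend (adjusted p = 0.0136) or with dim genes left out (adjusted p = 0.0239). The causes of these shifts were not tested, except that more or fewer tests or arrays entered by construction.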
